A study of Homo sapiens with 8 samples.

Results

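The growth factors of the fibroblast growth factor (FGF), epidermal growth factor (EGF) and hepatocyte growth factor (HGF) families and their receptor tyrosine kinases were followed in human intestinal epithelial cells (hIECs). The set holds 40 protein-coding genes of the 60558 genes in the files, chosen by symbol: every numbered FGF gene, FGFR1 to FGFR4, HGF and its receptor MET, and the EGF family ligands and receptors named in the text. Values were FPKM, fragments per kilobase of transcript and per unit of sequenced fragments, which are scaled for gene length and so can be compared between genes. Of the 40 genes, 12 reached at least 1 FPKM in at least 2 of the 8 libraries and were tested, 10 were above 0 in some library but under that level, and 18 were listed at 0 in all 8 libraries.

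The cells were grown in 2 dimensions from H9, a human embryonic stem cell line, and fell into 4 groups of 2 libraries: normal hIECs and inflamed hIECs, each without and with PM10. Inflamed hIECs had received the cytokines IFNγ and TNFα for 10 days, and PM10, a reference airborne particulate matter, was present in the last part of that time. The labels give the genotype of all groups as control and name 1 line, and nothing in them says that the 2 libraries of a group came from separate cultures, so p-values measure the spread between libraries, which may be technical. All 4 groups shared a history that bears on these genes: the stem cells were kept with basic FGF on mouse feeder cells, hindgut was induced with FGF4, and the differentiation media contained EGF protein.

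The libraries held between 16547 and 18926 genes above 0, the lowest value above 0 lay between 0.164 and 0.228 FPKM, and the read depth is unknown because no counts were used here. Mitochondrial genes took 15.5 to 24.2% of the summed FPKM, with the highest share in normal library 2. The epithelial label was not matched by its defining markers: CDX2, VIL1, MUC2, CHGA, LYZ and HNF4A were listed at 0 in all libraries, as were 10 of 15 intestinal markers in all, and CDH1, the epithelial cadherin, was above 0 in 1 library only, at 0.221 FPKM. KRT8 (185 to 383 FPKM) and KRT18 (100.1 to 266 FPKM) were present. None of 14 mesenchymal markers was at 0 in all libraries, and VIM reached 718 to 973 FPKM.

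FGFs, EGF family ligands and HGF are secreted or membrane-anchored proteins that bind receptor tyrosine kinases on the cell surface. The bound receptors pair, phosphorylate each other and pass the signal through adaptor proteins to the RAS-ERK and PI3K-AKT pathways, which control growth, survival, migration and repair. In the gut wall, HGF and several FGFs are classically made by mesenchymal cells and act on epithelial receptors, while EGF family ligands are made on both sides and drive renewal of the epithelium after injury.

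Sequences before a RefSeq start of 4 members with contrasting behaviour are given to show their base composition. HBEGF was higher in inflamed hIECs, and HGF, FGFR2 and, with PM10, FGF7 were lower. Each is 150 bases of GRCh38 from a RefSeq promoter window, read on the strand of the gene and free of annotated exons, with CG pairs in capitals. They are HBEGF at chr5:140346604-140346753 (minus strand), HGF at chr7:81770137-81770286 (minus strand), FGF7 at chr15:49423087-49423236 (plus strand) and FGFR2 at chr10:121598459-121598608 (minus strand).
HBEGF: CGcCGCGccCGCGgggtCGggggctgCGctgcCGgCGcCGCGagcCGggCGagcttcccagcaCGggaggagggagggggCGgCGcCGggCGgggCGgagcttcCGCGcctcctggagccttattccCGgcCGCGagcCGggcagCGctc
HGF: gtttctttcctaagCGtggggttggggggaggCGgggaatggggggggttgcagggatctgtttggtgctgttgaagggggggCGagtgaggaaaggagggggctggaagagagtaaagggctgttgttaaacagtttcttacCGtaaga
FGF7: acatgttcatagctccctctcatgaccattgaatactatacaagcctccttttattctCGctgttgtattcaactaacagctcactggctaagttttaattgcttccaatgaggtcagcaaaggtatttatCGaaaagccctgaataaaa
FGFR2: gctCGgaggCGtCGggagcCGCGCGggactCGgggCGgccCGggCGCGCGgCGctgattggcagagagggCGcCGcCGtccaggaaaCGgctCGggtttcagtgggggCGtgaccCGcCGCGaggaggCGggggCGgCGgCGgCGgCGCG
The HBEGF stretch held 26 CG pairs and 82.7% G or C bases, and the FGFR2 stretch held 29 pairs and 81.3%. HGF had 4 pairs and 56% G or C, and FGF7 had 2 pairs and 38%. The HGF stretch lay 90 to 239 bases before its RefSeq start and inside the annotated gene, which starts farther upstream. Over 35116 RefSeq windows, each the 150 bases directly before the start, the median was 7 CG pairs and 60% G or C. The member that rose and 1 of the members that fell were thus both rich in CG pairs, and HGF and FGF7 lay below the median. The quartiles over all windows were 2 and 15 pairs, so HGF lay between them and FGF7 at the lower one. The TATA letters TATAAA were in none of the 4 stretches and in 4.54% of all windows.

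Letters of motifs tied to cytokine and particle responses were searched on both strands in windows from 250 bases before to 50 bases after the RefSeq start of 10 of the 12 tested members, 21 windows in all, each motif counted separately where motifs overlapped. The NF-κB consensus occurs in 11.3% of all RefSeq windows, the interferon-γ element GAS (TTCNNNGAA) in 7.66%, the AP-1 site (TGANTCA) in 7.71% and the xenobiotic response core (TNGCGTG) in 5.51%. No window of HBEGF, HGF or FGF7 held any of these. An AP-1 match was found in 1 window each of EGFR, ERBB2, FGF1, FGF11 and FGF13, a xenobiotic response core in FGF2 and an NF-κB consensus in 1 window of FGFR2. The cyclic AMP element (TGACGTCA, 1.85% of all windows) and the core of the interferon-stimulated response element (3.57%) had no match in the 21 windows. FGFR1 and NRG1 were not searched, and a match is a string of letters only.

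Among the 8 EGF family ligands of the set HBEGF and NRG1 dominated, and both were several times higher in inflamed hIECs. NRG3, a relative outside the set, measured 7.63 and 7.55 FPKM in normal hIECs and 7.56 and 7.47 FPKM with PM10. In inflamed hIECs NRG3 measured 9.52 and 8.43 FPKM, and with PM10 8.09 and 9.24 FPKM. HBEGF, heparin-binding EGF-like growth factor, is a membrane-anchored ligand of EGFR and ERBB4 that is shed by metalloproteases. It measured 15.6 and 13.1 FPKM in normal hIECs, 10.6 and 10.5 FPKM with PM10, 43.4 and 45.0 FPKM in inflamed hIECs, and 73.9 and 73.8 FPKM in inflamed hIECs with PM10. No 2 groups overlapped, and the order ran from normal hIECs with PM10 to inflamed hIECs with PM10. Without PM10 the mean rose from 14.4 ± 1.72 to 44.2 ± 1.12 FPKM (SD, n = 2), a ratio of 3.08, and the limma difference was 1.56 on the log2(FPKM + 1) scale (SE 0.0754, adjusted p = 3.41e-06). With PM10 the ratio was 7.01 and the difference 2.70 (adjusted p = 1.7e-07).

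PM10 moved HBEGF in opposite directions in the 2 backgrounds. In normal hIECs HBEGF fell to 0.733 of its level (log2 difference -0.41, SE 0.0754, limma adjusted p = 0.0215), and in inflamed hIECs it rose 1.67-fold (0.73, adjusted p = 0.00156). The interaction, which tests the difference between these effects, was 1.14 (SE 0.107, adjusted p = 0.00216). The fall in normal hIECs was not called when only those 2 groups were fitted (adjusted p = 0.153) or without either normal hIEC library with PM10 (0.107 and 0.108) or either inflamed library with PM10 (0.0508 both times). The gene lies on GRCh38 chromosome 5 from 140332843 to 140346603, and no other gene has exons over its own.

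NRG1, neuregulin 1, is a ligand of ERBB3 and ERBB4. It measured 0.743 and 1.48 FPKM in normal hIECs, 1.12 and 1.43 FPKM with PM10, 7.68 and 7.67 FPKM in inflamed hIECs, and 11.4 and 10.9 FPKM in inflamed hIECs with PM10. The normal groups overlapped each other, and every inflamed library stood above them. The ratio to the matched group without cytokines was 6.90 without PM10 and 8.75 with it, and the log2 differences were 2.06 (SE 0.156, limma adjusted p = 3.23e-05) and 2.42 (adjusted p = 9.73e-06). The difference between inflamed hIECs with and without PM10 was 0.49 (adjusted p = 0.0762), which passed the threshold when only those groups were fitted (0.0182) or without normal library 1 (0.0122) or 2 (0.0124). The interaction was 0.36 (adjusted p = 0.37) and passed only without normal library 1 (0.62, adjusted p = 0.042).

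The other EGF family ligands of the set were near or at 0. AREG, amphiregulin, was above 0 in 3 libraries, at 0.175 and 0.300 FPKM in normal hIECs and 0.238 FPKM in 1 inflamed library. TGFA was above 0 in 1 normal library (0.307 FPKM) and 1 normal library with PM10 (0.246 FPKM). EGF itself, which the media supplied as protein, was listed at 0 in the 4 libraries without cytokines and measured 0.307 FPKM in 1 inflamed library and 0.315 and 0.823 FPKM in the inflamed libraries with PM10. The fit to all genes above 0 called EGF higher with cytokines and PM10 (0.63, limma adjusted p = 0.0244). EGF entered that fit only through inflamed libraries, and the call sets low values that differed from each other against listings at 0. BTC, EREG and NRG2 were listed at 0 throughout. HBEGF alone was 84.6 to 92.7% of the summed FPKM of these 8 ligands, and the sum was 14.9 to 16.8 in normal hIECs, 11.9 to 11.96 with PM10, 51.1 to 53.2 in inflamed hIECs and 85.6 in both inflamed libraries with PM10.

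**Figure D1:**
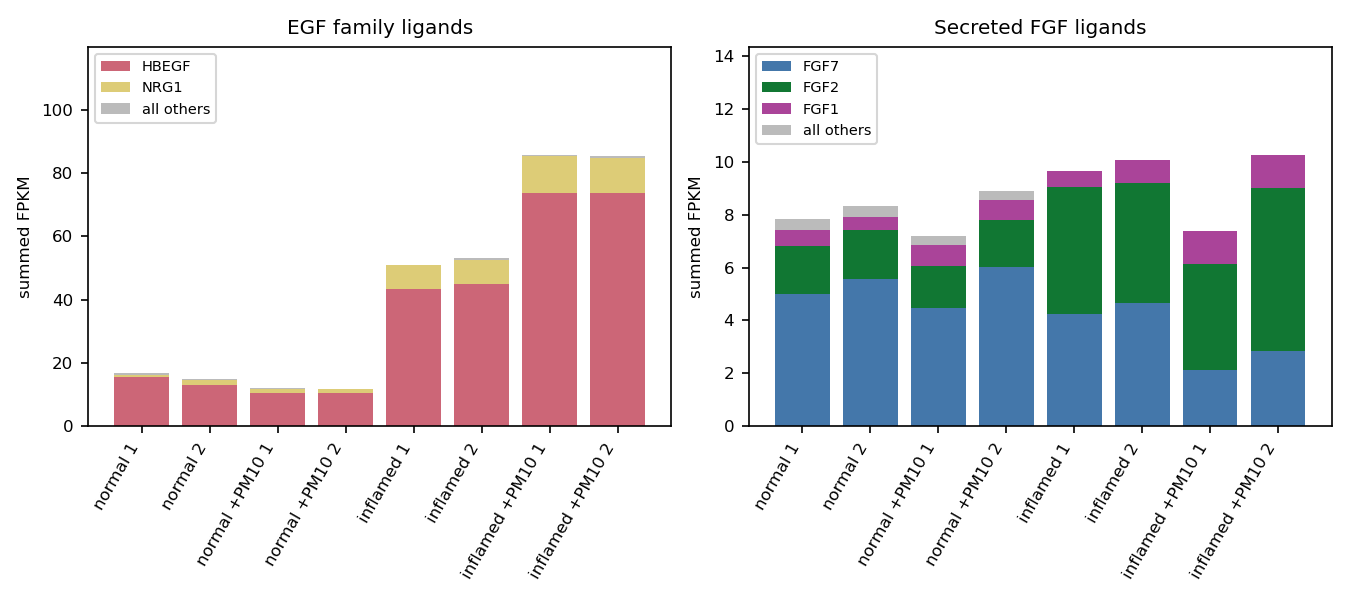
Summed FPKM in each of the 8 libraries, with the contribution of each gene in colour. The EGF family ligands of the set, without NRG3, are on the left and the secreted FGF ligands on the right. FPKM starts at 0 on both axes and the scales differ. HBEGF makes up most of every bar on the left, and on the right FGF2 takes a larger part in the inflamed libraries while the sums stay between 7.20 and 10.2 FPKM.

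The EGF family receptors moved much less than the ligands. EGFR, the receptor of EGF and HBEGF, measured 2.38 and 2.22 FPKM in normal hIECs, 2.71 and 2.73 FPKM with PM10, 2.56 and 2.45 FPKM in inflamed hIECs, and 2.56 and 2.68 FPKM in inflamed hIECs with PM10. All 8 values lay close together, and no comparison called it. The cytokine differences in log2(FPKM + 1) were 0.09 (95% interval -0.08 to 0.26) without PM10 and -0.04 (-0.21 to 0.13) with it, so these data leave room for small changes in either direction, and the second difference turned positive under other scalings. Reads of EGFR-AS1, on the other strand, cannot be told apart from those of EGFR because the libraries keep no strand.

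ERBB2, the partner receptor that binds no ligand of its own, measured 19.5 and 18.9 FPKM in normal hIECs, 20.8 and 20.9 FPKM with PM10, 14.6 and 14.7 FPKM in inflamed hIECs, and 17.9 and 16.9 FPKM in inflamed hIECs with PM10. The inflamed groups lay below both normal groups without overlap. Its difference with cytokines was -0.37 without PM10 (SE 0.0523, limma adjusted p = 0.000733) and -0.25 with PM10 (adjusted p = 0.00439). PM10 in inflamed hIECs raised it by 0.24 (adjusted p = 0.0256), a call that was lost without any 1 of the 6 libraries outside the normal group (adjusted p from 0.0516 without either normal library with PM10 to 0.148 without inflamed library 1 with PM10). Exons of MIEN1 and PGAP3 on the other strand overlap those of ERBB2 on chromosome 17.

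ERBB3, a receptor of NRG1, was above 0 in 1 library only, a normal one at 0.166 FPKM, and ERBB4 was listed at 0 in all 8. ERBB2 was 85.05 to 89.5% of the summed FPKM of the 4 receptors. The rise in NRG1 RNA therefore stood beside receptors that were at or near 0. HBEGF exceeded EGFR 5.92- to 6.54-fold in FPKM in normal hIECs, 3.84- to 3.90-fold with PM10, 16.9- to 18.3-fold in inflamed hIECs and 27.6- to 28.8-fold in inflamed hIECs with PM10.

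**Figure D2:**
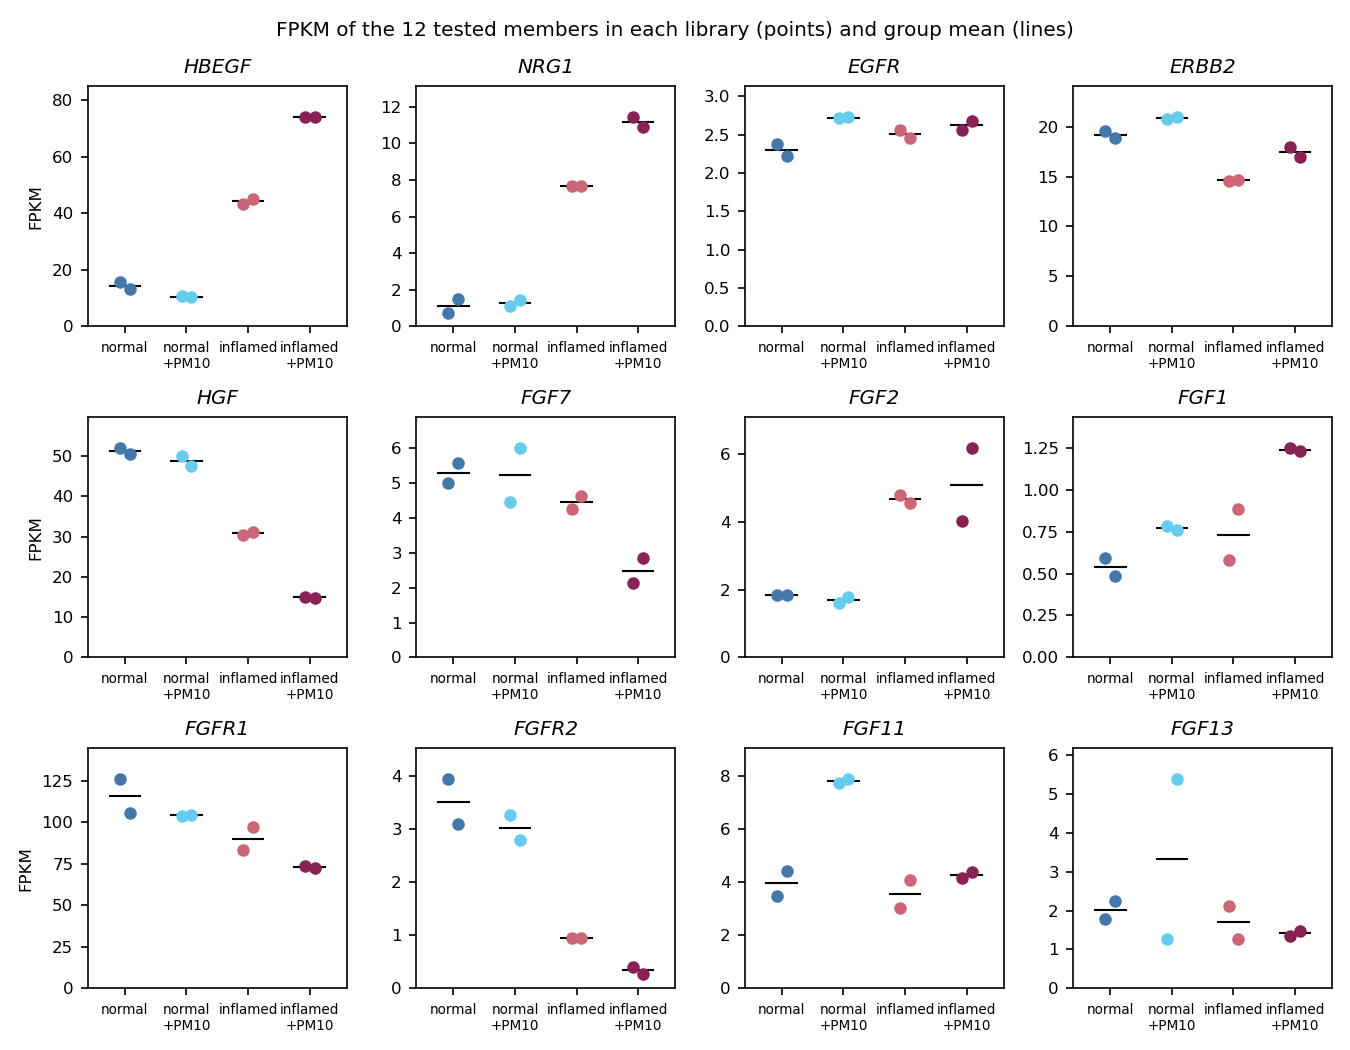
FPKM of each of the 12 tested genes in every library (points) with the mean of the 2 libraries of a group (line), one panel per gene with its own axis from 0. HBEGF, NRG1 and FGF2 are high in both inflamed groups, HGF and FGFR2 are low there, and EGFR stays between 2.22 and 2.73 FPKM.

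HGF, the scatter factor that drives epithelial migration and branching through MET, was the most abundant ligand in normal hIECs and fell with cytokines. It measured 51.9 and 50.4 FPKM in normal hIECs, 49.98 and 47.6 FPKM with PM10, 30.5 and 31.2 FPKM in inflamed hIECs, and 15.04 and 14.8 FPKM in inflamed hIECs with PM10. The 2 inflamed groups lay apart from each other and from all normal libraries. Without PM10 the mean fell from 51.2 ± 1.07 to 30.8 ± 0.48 FPKM (SD, n = 2), a log2 difference of -0.71 (SE 0.0489, limma adjusted p = 1.96e-05). With PM10 it was 3.27-fold lower, with a difference of -1.65 (adjusted p = 2.27e-07).

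PM10 lowered HGF in inflamed hIECs and the test called no difference in normal hIECs. In inflamed hIECs HGF was 2.07-fold lower with PM10, a difference of -1.0 (SE 0.0489, limma adjusted p = 0.000123). In normal hIECs the difference was -0.07 (95% interval -0.18 to 0.05, adjusted p = 0.388). The interaction was -0.93 (SE 0.0691, adjusted p = 0.0015). HGF occupies chromosome 7 from 81699010 to 81770438 with no overlapping exons of another gene.

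MET was low in all 8 libraries. It measured 0.410 and 0.461 FPKM in normal hIECs, 0.301 and 0.534 FPKM with PM10, 0.537 and 0.534 FPKM in inflamed hIECs, and 0.987 and 1.10 FPKM in inflamed hIECs with PM10. Only the last group stood apart, and it was under the level for the main test. When all genes above 0 in any library were fitted, MET was higher with cytokines in the presence of PM10 by 0.53 (limma adjusted p = 0.00441) and not called in the other comparisons. The ratio of HGF to MET in FPKM was 109 to 127 in normal hIECs, 89.1 to 166 with PM10, 56.8 to 58.4 in inflamed hIECs and 13.4 to 15.2 in inflamed hIECs with PM10. MET lay at 0.301 to 0.537 FPKM outside the last group, not far above the lowest values above 0, so these ratios are uncertain.

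Of the 18 secreted FGFs, 3 were tested, and 14 were listed at 0 in all libraries. The tested members moved in different directions. FGF2, basic FGF, which lacks a classical secretion signal and binds heparan sulphate, measured 1.83 FPKM in both normal libraries, 1.60 and 1.78 FPKM with PM10, 4.79 and 4.55 FPKM in inflamed hIECs, and 4.02 and 6.17 FPKM in inflamed hIECs with PM10. Every inflamed library lay above every normal one, while the 2 inflamed groups overlapped. The ratio was 2.55 without PM10 and 3.01 with it, with log2 differences of 1.00 (SE 0.152, limma adjusted p = 0.00105) and 1.16 (adjusted p = 0.000383). Exons of NUDT6 on the other strand overlap those of FGF2 on chromosome 4, and the 2 cannot be separated in these libraries.

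FGF7, keratinocyte growth factor, is a mesenchymal ligand for the epithelial form of FGFR2. It measured 4.99 and 5.58 FPKM in normal hIECs, 4.46 and 6.003 FPKM with PM10, 4.26 and 4.65 FPKM in inflamed hIECs, and 2.12 and 2.84 FPKM in inflamed hIECs with PM10. Only the inflamed libraries with PM10 lay below all the rest. Cytokines with PM10 lowered FGF7 2.11-fold (log2 difference -0.84, SE 0.143, limma adjusted p = 0.0015), while without PM10 the difference was -0.21 (adjusted p = 0.256). PM10 in inflamed hIECs lowered it (-0.65, adjusted p = 0.0245), a call that was lost when those 2 groups were fitted alone (0.053) and without inflamed library 1 (0.0878) or 2 (0.123) or inflamed library 1 with PM10 (0.129). The interaction was -0.63 (adjusted p = 0.115).

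FGF1, acidic FGF, which can bind all FGF receptors, measured 0.539 ± 0.074 FPKM in normal hIECs, 0.771 ± 0.016 FPKM with PM10, 0.733 ± 0.217 FPKM in inflamed hIECs and 1.24 ± 0.012 FPKM in inflamed hIECs with PM10 (SD, n = 2). It reached 1 FPKM in the last group only and so was tested through the group where it was highest. Its difference with cytokines and PM10 was 0.34 (limma adjusted p = 0.0291), lost without any 1 of the 4 libraries compared (0.0807 and 0.0952 without normal library 1 or 2 with PM10, 0.0959 and 0.0882 without inflamed library 1 or 2 with PM10). Its difference for PM10 in inflamed hIECs was 0.38 (0.0625), called with quantile normalization (0.0348), with protein-coding genes only (0.0481) and without the variance trend (0.0406), and quantile normalization also called cytokines without PM10 (0.34, 0.0271). FGF18 was above 0 in all 4 libraries without cytokines, at 0.349 to 0.438 FPKM, and listed at 0 in all 4 with cytokines. The fit to all genes above 0 called it lower without PM10 (limma adjusted p = 0.00168) and with PM10 (limma adjusted p = 0.00267). FGF18 entered that fit only through the libraries without cytokines, and its calls set low values against listings at 0. Listed at 0 throughout were FGF3, FGF4, FGF5, FGF6, FGF8, FGF9, FGF10, FGF16, FGF17, FGF19, FGF20, FGF21, FGF22 and FGF23, among them FGF4, which was supplied as protein during differentiation, and FGF19, the bile acid responsive hormone of the ileum. FGF7 made up 63.8 to 67.0% of the summed FPKM of secreted FGFs in normal hIECs and 27.7 to 28.7% in inflamed hIECs with PM10, and FGF2 went from 22.0 to 23.4% up to 54.4 to 60.3%.

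Of the 4 FGF receptors, FGFR1 and FGFR2 were lower in inflamed hIECs, and FGFR3 and FGFR4 stayed under the level for the main test. FGFR1, the receptor typical of mesenchymal cells, was the most abundant member in every group but inflamed hIECs with PM10, where HBEGF was slightly higher. It measured 126 and 105.5 FPKM in normal hIECs, 104.0 and 104.3 FPKM with PM10, 83.3 and 96.9 FPKM in inflamed hIECs, and 73.6 and 72.8 FPKM in inflamed hIECs with PM10. Every inflamed library lay below every normal one. The differences were -0.36 without PM10 (SE 0.0952, limma adjusted p = 0.0151) and -0.50 with PM10 (adjusted p = 0.00249). The first was not called in a fit to its 2 groups alone (0.0525) or without normal library 1 (0.065) or inflamed library 1 (0.0962). PM10 in inflamed hIECs gave -0.29 (0.079), which was called with median centring (0.0449) and without normal library 1 (0.0356) or 2 (0.0354). Exons of LETM2 on the other strand overlap the gene on chromosome 8.

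FGFR2, whose epithelial form binds FGF7 and FGF10, showed the largest fall among the receptors tested. It measured 3.94 and 3.10 FPKM in normal hIECs, 3.26 and 2.79 FPKM with PM10, 0.957 FPKM in both inflamed libraries, and 0.408 and 0.268 FPKM in inflamed hIECs with PM10. The normal groups overlapped, and the inflamed groups lay below them and apart from each other. FGFR2 was 3.68-fold lower with cytokines (log2 difference -1.20, SE 0.118, limma adjusted p = 0.000118) and 8.95-fold lower when PM10 was present in both groups (-1.59, adjusted p = 2.05e-05). PM10 in inflamed hIECs gave -0.55 (adjusted p = 0.023), lost without any 1 of the 4 libraries compared (0.101 and 0.102 without inflamed library 1 or 2, 0.0655 and 0.121 without inflamed library 1 or 2 with PM10) and with quantile normalization (0.0565). FGFR2 reached 1 FPKM in the 4 libraries without cytokines only, so it entered the test through the groups where it was high. It also passed a mean of at least 1 FPKM over all libraries, and the cytokine calls held there. That mean was carried by the same 4 libraries, so this filter is no separate check. The files do not separate the epithelial and mesenchymal forms of FGFR2.

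FGFR4 lay between 0.302 and 0.671 FPKM in all libraries, and FGFR3 was above 0 in 2 libraries, at 0.241 and 0.284 FPKM. The fit to all genes above 0 called neither in a cytokine comparison (FGFR4 -0.19, limma adjusted p = 0.283, without PM10). FGFR1 was 96.3 to 96.7% of the summed FPKM of the 4 receptors in normal hIECs and 98.8 to 99.1% in inflamed hIECs with PM10. In FPKM, FGF7 exceeded FGFR2 1.27- to 1.80-fold in normal hIECs, 1.37- to 2.15-fold with PM10, 4.45- to 4.86-fold in inflamed hIECs and 5.21- to 10.6-fold in inflamed hIECs with PM10. Every inflamed library had a higher ratio than every normal one. In inflamed hIECs with PM10 both genes were lower than in the other groups. FGFR2 lay near the lowest value above 0 there, at 0.408 and 0.268 FPKM, so that ratio is uncertain.

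FGF11 to FGF14 are the FGF homologous factors, which stay inside the cell and bind voltage-gated sodium channels rather than act as FGF receptor ligands. FGF11 measured 3.48 and 4.44 FPKM in normal hIECs, 7.74 and 7.88 FPKM with PM10, 3.04 and 4.08 FPKM in inflamed hIECs, and 4.16 and 4.37 FPKM in inflamed hIECs with PM10. Only normal hIECs with PM10 stood apart from the rest. PM10 raised it 1.97-fold in normal hIECs (log2 difference 0.84, SE 0.128, limma adjusted p = 0.0123), against 0.22 in inflamed hIECs (adjusted p = 0.284), with an interaction of -0.62 (adjusted p = 0.0917). The call in normal hIECs was lost in a fit to those groups alone (0.102) and without normal library 1 (0.0774) or 2 (0.0789) with PM10. Cytokines with PM10 lowered FGF11 (-0.74, adjusted p = 0.00157), a comparison that uses the same normal libraries with PM10. Exons of 3 other genes overlap those of FGF11.

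FGF13 averaged 2.02 ± 0.337 FPKM in normal hIECs, 3.33 ± 2.91 FPKM with PM10, 1.70 ± 0.596 FPKM in inflamed hIECs and 1.42 ± 0.098 FPKM in inflamed hIECs with PM10 (SD, n = 2). The normal libraries with PM10 disagreed, at 1.27 and 5.38 FPKM, and no comparison called the gene. Without the lower of them, library 1, FGF13 was called lower with cytokines and PM10 (-1.4, limma adjusted p = 0.00169), and without the higher one that difference was 0.09 (adjusted p = 0.726). FGF12 was at 0.504 and 0.543 FPKM in normal hIECs and 0.229 FPKM in 1 normal library with PM10, and listed at 0 elsewhere. The fit to all genes above 0 called it lower with cytokines without PM10 (limma adjusted p = 0.0044). FGF12 entered that fit only through libraries without cytokines, and the call sets low values against listings at 0. FGF14 lay between 0.387 and 0.873 FPKM in 7 libraries and was listed at 0 in 1 inflamed library with PM10.

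**Figure D3:**
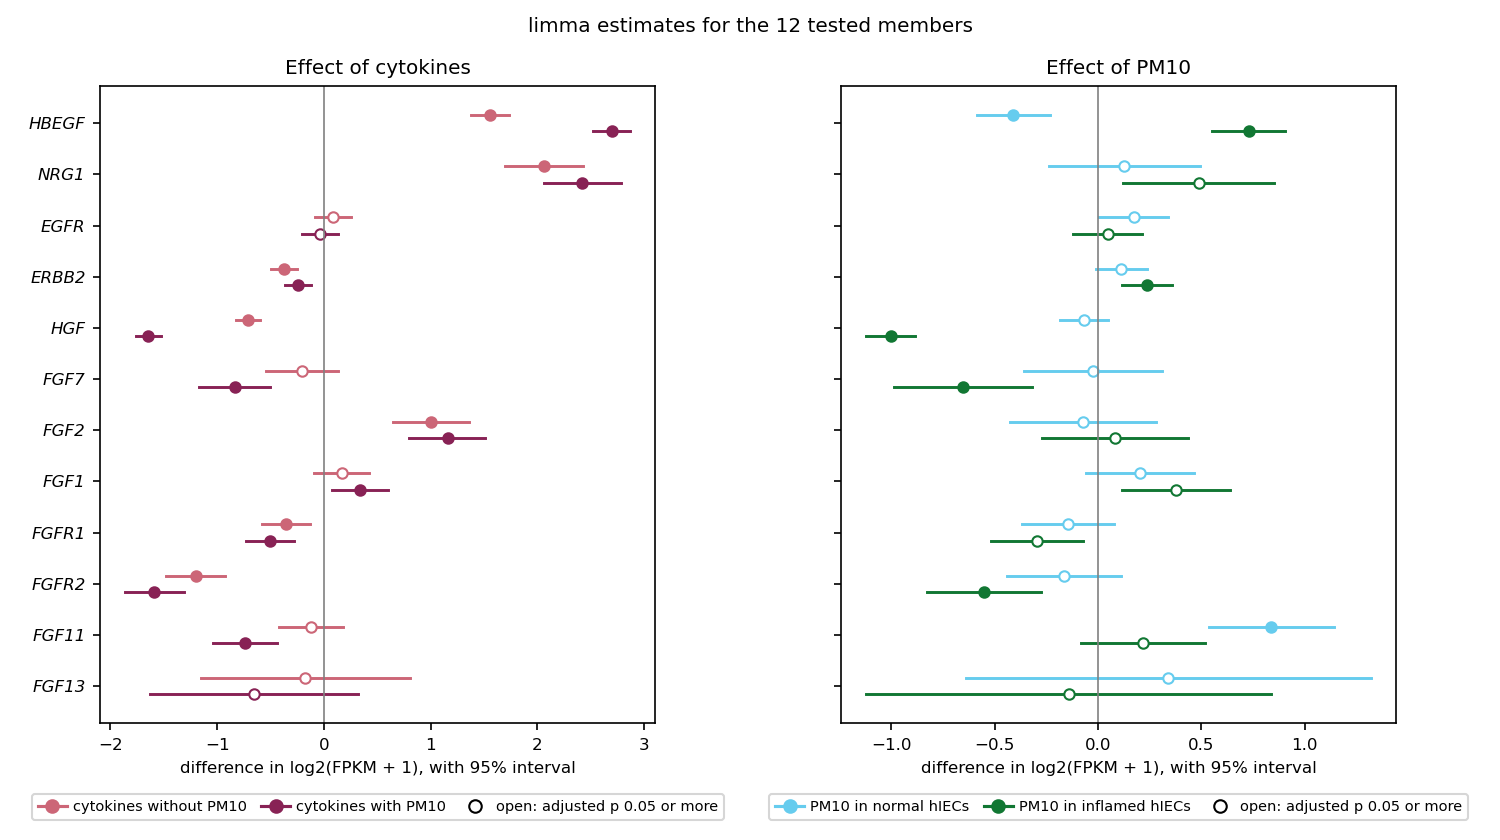
Difference in log2(FPKM + 1) with its 95% interval from limma for the 12 tested genes, with the effect of cytokines on the left (without and with PM10) and of PM10 on the right (in normal and inflamed hIECs); filled points have an adjusted p under 0.05. HBEGF and HGF lie on opposite sides of 0 on the left, at 2.70 and -1.65 with PM10, and the PM10 effects on HBEGF fall on both sides of 0.

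Over the 12 tested members, cytokines without PM10 raised 3 (HBEGF, NRG1, FGF2) and lowered 4 (HGF, FGFR1, FGFR2, ERBB2). Among all 14206 genes tested, 25.9% were called higher and 30.3% lower in this comparison. Cytokines with PM10 raised 4 members, FGF1 in addition, and lowered 6, FGF7 and FGF11 in addition, against 25.8% and 39.6% of all genes. FGF1 had entered the test only through the group where it was highest, and with a filter on the mean it was not tested and 9 members were called in place of 10. The all-gene split with PM10 also moved with scaling, from 3661 higher and 5625 lower to 4189 and 5152 with median centring and 4399 and 4752 with quantile normalization. The median difference of the members was -0.15 without PM10 and -0.38 with it, and that of all genes tested was -0.03 and -0.11. The 2 comparisons have no library in common, and all 7 members called in the first were called in the same direction in the second, 100% of the first list and 70% of the second. Among all genes tested these shares were 85.9% and 73.9%.

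PM10 changed fewer members. In normal hIECs it raised 1 (FGF11) and lowered 1 (HBEGF) of 12, where 5.51% of all genes were called higher and 3.72% lower. In inflamed hIECs it raised 2 (HBEGF, ERBB2) and lowered 3 (HGF, FGF7, FGFR2), where 6.22% were called higher and 9.02% lower. The interaction was called higher for 1 (HBEGF) and lower for 1 (HGF), against 2.11% and 4.48% of all genes. The split over all genes moved with scaling: 783 higher and 528 lower for PM10 in normal hIECs became 563 and 749 with median centring and 628 and 633 with quantile normalization. For PM10 in inflamed hIECs 883 and 1282 became 1136 and 1102 with quantile normalization, and for the interaction 300 and 637 became 453 and 539 with median centring and 425 and 487 with quantile normalization.

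Genes tied to signalling by these receptors were followed in lists chosen by function. Whether the receptors drove any change in them was not tested. Of 20 genes that respond to RAS-ERK signalling, 15 rose and 2 fell with cytokines without PM10 (median difference 0.40), and 10 rose and 6 fell with PM10 (0.23). Over all genes tested the shares were 25.9% higher and 30.3% lower without PM10 and 25.8% and 39.6% with it, and the medians -0.03 and -0.11. FOSL1, an AP-1 subunit, rose by 1.81 without PM10 and 2.83 with PM10 (limma adjusted p = 3.71e-05 and 2.99e-06). PLAUR, the urokinase receptor, rose by 1.29 and 1.77, HMGA2 by 1.23 and 1.74, and CCND1, cyclin D1, by 0.93 and 1.48. EGR3, an immediate early transcription factor, fell (-0.84 and -1.63), as did JUN (-0.42 and -0.99).

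PM10 in inflamed hIECs raised 5 and lowered 5 of these 20 genes, beside 6.22% and 9.02% of all genes. FOSL1 rose by 1.26 and CCND1 by 0.61, while the immediate early genes FOS (-2.35, limma adjusted p = 9e-05) and EGR1 (-1.3, adjusted p = 0.000207) fell. In normal hIECs, where 5.51% of all genes were called higher and 3.72% lower, 4 rose and 2 fell, among them JUN (0.54, adjusted p = 0.00282), EGR2 (0.27), ETV4 (-0.55, adjusted p = 0.00924) and PLAUR (-0.22). EGR2 was not called with median centring (0.101) or quantile normalization (0.125) and PLAUR not without any 1 of the 8 libraries (0.0526 without normal library 1 to 0.187 without normal library 1 with PM10). The interaction was called higher for 5 and lower for 6 of the 20, beside 2.11% and 4.48% of all genes.

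The calls for PM10 in normal hIECs on the pathway lists were weakly held. All 10 that are named in the text, from every list, were lost when only those 2 groups were fitted, the lowest adjusted p being that of FGFBP3 (0.0512).

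Of 21 feedback and negative regulators, 19 were tested. With cytokines 10 rose and 5 fell without PM10, and 9 rose and 4 fell with it, where 25.9% and 25.8% of all genes rose and 30.3% and 39.6% fell. DUSP5, a phosphatase of ERK, rose by 0.77 and 0.83, SPRY4, an inhibitor of receptor signalling, by 0.72 and 0.62, LRIG1, which lowers EGF receptor levels, by 0.58 and 0.66, and the phosphatase gene PTPN1 by 0.54 and 0.53. SPINT2, an inhibitor of the proteases that activate HGF, fell (-2.15 and -2.06, limma adjusted p = 1.28e-06 and 1.21e-06). FGFRL1, an FGF receptor without a kinase (-0.44 and -0.56), SPRY2 (-0.25 and -0.53) and SPRED2 (-0.37 and -0.39) fell too. PM10 lowered 1 of the 19, ERRFI1 (-0.30), in normal hIECs, and in inflamed hIECs 3 rose, among them DUSP4 (0.68) and SPINT1 (0.43), and 3 fell, among them CBLB (-0.46) and SPRY2 (-0.43). ERRFI1 was not called without either normal library with PM10 (0.0923 and 0.143) or any 1 of the 4 inflamed libraries (0.0597 to 0.0609). SPINT1 was not called without any 1 of those 4 (0.0538 to 0.0729), CBLB not without inflamed library 2 (0.0834) or inflamed library 1 (0.0732) or 2 (0.0677) with PM10, and SPRY2 with cytokines without PM10 not without inflamed library 2 (0.0515).

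Of 32 co-receptors, binding proteins and ligand-processing enzymes, 23 were tested and 7 were listed at 0, among them the endocrine FGF co-receptors KL and KLB. With cytokines 7 rose and 10 fell without PM10, and 9 rose and 11 fell with PM10, where 25.9% and 25.8% of all genes rose and 30.3% and 39.6% fell. RHBDF2, which carries the ligand-shedding protease ADAM17 to the cell surface, rose by 2.46 and 2.79 (limma adjusted p = 2.59e-06 and 1e-06). RHBDF2 lay between 0.371 and 0.75 FPKM in the normal libraries, so it entered the test only through the inflamed groups, where it was high. ADAM17 itself was not called (0.04 and -0.01). The heparan sulphate proteoglycan genes SDC4 and SDC1 rose by 1.46 and 0.78 without PM10 and by 1.26 and 1.4 with it, and HS6ST2, which sulphates heparan chains, by 1.10 and 0.92. FGFBP3, a carrier of FGFs (-2.45 and -3.44), GPC3 (-1.78 and -2.06), SULF2 (-1.5 and -1.93) and CD9, a membrane partner of HBEGF (-1.19 and -1.2), fell. PM10 in normal hIECs raised 5, with HS6ST2 (0.89) and FGFBP3 (0.85) at the head, and lowered GPC3 (-0.33), and in inflamed hIECs 6 rose, led by HS6ST2 (0.72) and PLAU (0.71), and 4 fell, led by GPC2 (-0.69) and GPC3 (-0.61). GPC3 in normal hIECs was not called without either normal library with PM10 (0.112 and 0.138) or any 1 of the 4 inflamed libraries (0.0546 to 0.0575).

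The signal transduction core was called about as often as all genes with cytokines. Of 30 genes tested, 7 rose and 7 fell without PM10, beside 25.9% and 30.3% of all genes, and 9 rose and 10 fell with PM10, beside 25.8% and 39.6%. PIK3CB rose by 0.66 and 0.91, NRAS by 0.72 and 0.52, PTPN11 by 0.53 and 0.64 and FRS2, the FGF receptor adaptor, by 0.61 and 0.50. SHC2 (-1.56 and -1.9), PIK3R1 (-0.64 and -1.14), PLCG1 (-0.80 and -0.72) and KSR1 (-0.62 and -0.86) fell. PM10 raised 4 of the 30 in normal hIECs, with PIK3R2 (0.76) and PIK3R1 (0.39) at the head, and 1, PTPN11 (0.38), in inflamed hIECs. PTPN11 was not called without any 1 of the 6 libraries outside the normal group (0.0625 without either normal library with PM10 to 0.15 without inflamed library 1 with PM10). PIK3R2 was not called without normal library 2 (0.071) or normal library 1 (0.0879) or 2 (0.0873) with PM10, and PIK3R1 not without any 1 library but normal library 1 (0.0609 to 0.18). Of 7 relatives outside the set, 3 were tested. MST1, the HGF-like protein, fell with cytokines (-1.81 and -2.19). CDCP1 rose with cytokines by 1.42 and 2.10, and PM10 in inflamed hIECs raised it by 0.68. CDCP1 was listed at 0 in all normal libraries, so it entered the test only through the inflamed groups, where it was high. NRG3, the remaining relative tested, was not called for cytokines or for PM10.

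**Figure D4:**
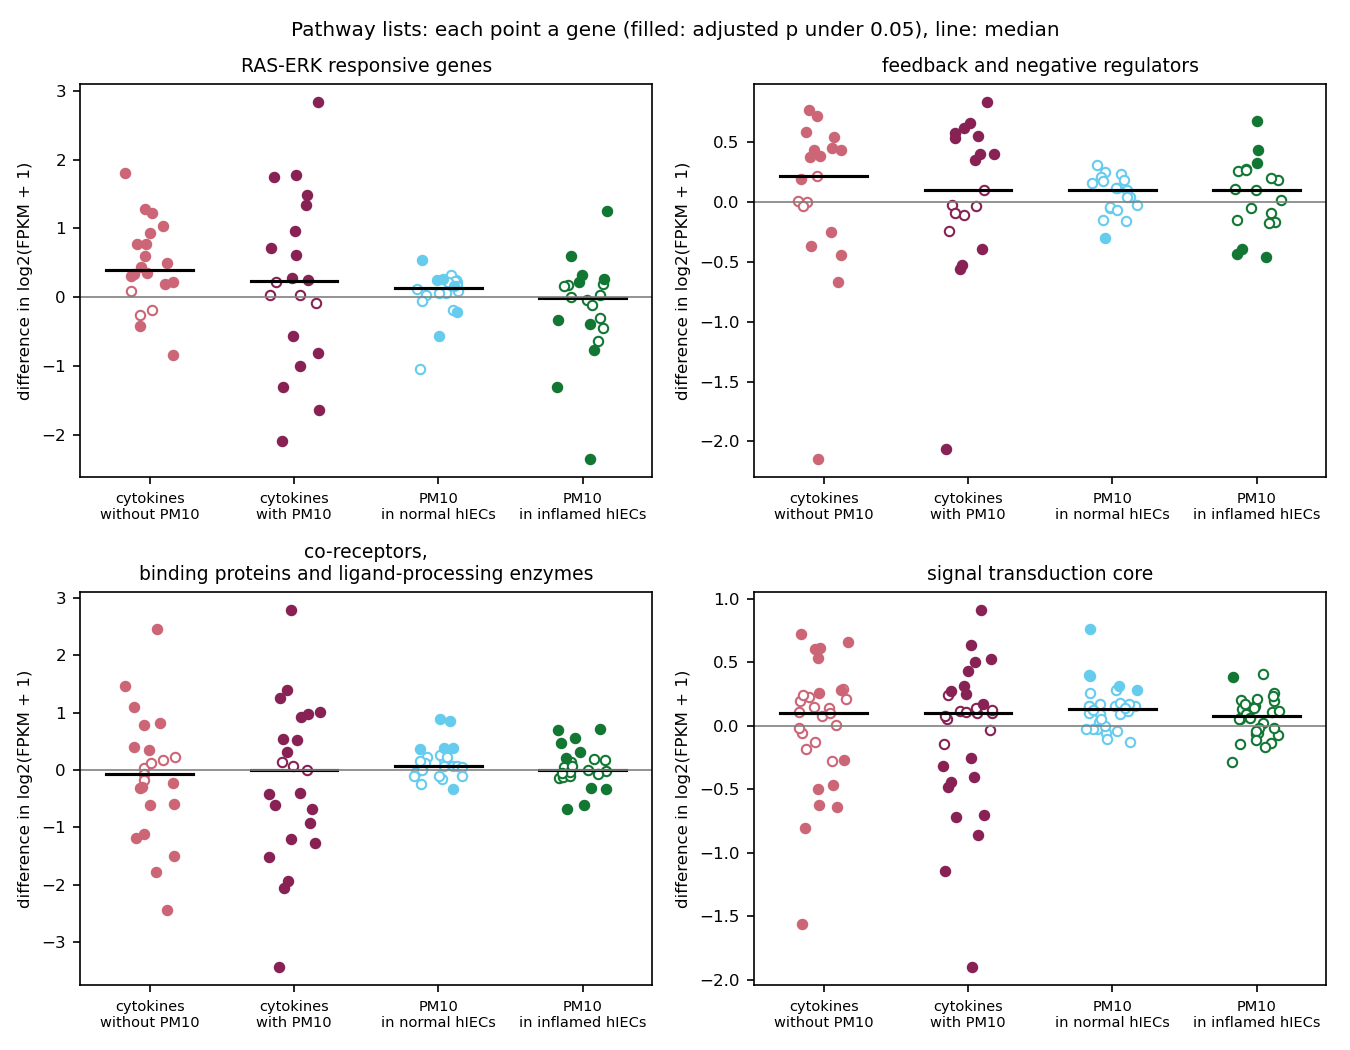
Differences in log2(FPKM + 1) of the tested genes of 4 pathway lists in the 4 comparisons; each point is a gene, filled where the limma adjusted p is under 0.05, and the black line is the median. For RAS-ERK responsive genes the median with cytokines lies at 0.40 without PM10 and 0.23 with it, and for PM10 in inflamed hIECs the points spread from -2.35 to 1.26.

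Markers of several cell types differed between the groups. The summed FPKM of 14 epithelial markers, nearly all of it from keratin genes, was 643 to 653 in normal hIECs, 599 to 636 with PM10, 348 to 353 in inflamed hIECs and 288 to 306 in inflamed hIECs with PM10. The mesenchymal sum was 5163 to 5179, 4506 to 4527, 5860 to 5932 and 5178 to 5195 in the same order, but its 13 tested genes split, with 6 higher and 5 lower with cytokines without PM10 and 6 and 6 with PM10. LUM (1.31 and 1.62), TAGLN (0.65 and 0.94) and ACTA2 (0.56 and 0.97) rose, and COL3A1 (-0.53 and -1.13), PDGFRA (-0.69 and -1.02) and TWIST1 (-0.65 and -1.37) fell. The neuronal sum was 198 to 209, 218 to 226, 116 in both inflamed libraries and 130 to 132. The intestinal sum was 16.98 to 19.4, 18.6 to 18.9, 10.6 to 11.2 and 13.6 FPKM, and of its 3 tested genes SOX9 fell with cytokines (-1.63 and -1.67), LGR5 rose (0.97 and 1.45) and KLF5 fell in the cytokine comparison with PM10 (-0.37) and was not called without it (-0.12). The proliferation sum was 116 to 125, 91.9 to 97.8, 200 to 205 and 182 to 183, and all 8 of its genes were called higher in both cytokine comparisons. The endothelial and immune sums did not exceed 0.777 and 1.83 FPKM. The endothelial markers PECAM1, CDH5, KDR and VWF and the immune markers CD14, CD3E and ITGAM were listed at 0. CD68, at 0 to 1.83 FPKM, was called higher with PM10 in inflamed hIECs (0.84). It reached 1 FPKM only in inflamed hIECs with PM10 and so entered the test through the group where it was highest. In bulk RNA, fewer cells of a type and less RNA per cell cannot be told apart, and the part of these shifts in the changes of HGF, FGF7, FGFR1, FGFR2, HBEGF and NRG1 was not tested.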

How the data were processed

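RNA from 8 libraries was sequenced after poly-A selection without strand information. The authors removed adapters with Cutadapt, trimmed with Sickle, aligned to GRCh38 with HISAT2 and estimated expression with StringTie, and they deposited FPKM, 1 value for each gene in each library, which were not scaled further. The annotation release is not given in the sources used here. Gene identifiers were matched to GENCODE release 44 (99.5% of identifiers, 40 of 40 members), which gave positions and overlaps.

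The scale of all tests was log2(FPKM + 1), on which changes of low genes are understated. limma 3.58.1 in R 4.3.3, with a variance trend, took all 8 libraries in 1 fit to the 14206 genes that reached 1 FPKM in 2 or more libraries. Benjamini-Hochberg adjustment covered all of these genes, with 0.05 as the threshold. An exact permutation test of 2 against 2 libraries cannot go below p = 0.333 and was not used. The procedure was tested on simulated data in which only a small part of the genes changed, unlike in the cytokine comparisons. That test therefore lends no weight to the calls made here. Every tested member is described. From each pathway list, up to 4 genes per direction called in both cytokine comparisons, and up to 2 per direction in each PM10 comparison, were named by size of change, and ADAM17 was added after its values were seen. The members and lists were chosen with earlier results of these data known. The alternatives were a pseudocount of 0.1, other filters, scalings and fits, a replicate block, and leaving out each library.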

Additional observations from a re-analysis of the deposited data

Results flagged for a closer look

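The effect of PM10 on HBEGF differed between the 2 backgrounds. HBEGF was lower with PM10 in normal hIECs and higher with PM10 in inflamed hIECs, and the interaction in the limma fit was 1.14 on the log2(FPKM + 1) scale (adjusted p = 0.00216). The 2 libraries of normal hIECs spread from 13.1 to 15.6 FPKM, and neither lay within the range of any other group.

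The effect of PM10 on HGF differed in the same way of testing, with an interaction of -0.934 (limma adjusted p = 0.0015). PM10 lowered HGF in inflamed hIECs in both libraries, to 15.04 and 14.8 FPKM from 30.5 and 31.2 FPKM, and the 2 normal groups lay between 47.6 and 51.9 FPKM. The summed mesenchymal markers were also lower with PM10 in inflamed hIECs, 5178 to 5195 against 5860 to 5932 FPKM. They were lower with PM10 in normal hIECs too, 4506 to 4527 against 5163 to 5179 FPKM. The 13 tested genes of this list did not all fall. In inflamed hIECs 1 was called higher and 7 lower, beside 6.22% and 9.02% of all genes. In normal hIECs 2 were called higher and 3 lower, beside 5.51% and 3.72%. The part of these markers in the HGF result was not tested.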

How the results depend on the processing

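Calls of HBEGF and HGF in the cytokine comparisons, for PM10 in inflamed hIECs and in the interaction held under all alternatives run. No member difference called in the main test changed direction under an alternative. The count of members called for PM10 in normal hIECs was 2 and became 0 with only 2 groups in the fit, where 23 of 14206 genes were called in place of 1311; leaving out 1 library gave 0 to 2, with 0 without either normal library with PM10 and 1 without either inflamed library with PM10. For PM10 in inflamed hIECs the count was 5 and ranged from 2 to 7: 2 without either inflamed library or inflamed library 1 with PM10, 3 without inflamed library 2 with PM10, and 7 without either normal library. Over all alternatives the counts ranged from 6 to 9 for cytokines without PM10, 9 to 13 with PM10 and 2 to 3 for the interaction; 9 and 13 came from the fit to all genes above 0. Of the member values, 946 kept direction and side of the threshold, 30 lost and 13 gained a call, and 14 changed direction, none of them called; the cause was not tested. Of 88 calls named on the pathway lists, 14 were lost under at least 1 alternative, none changed direction, and all 10 for PM10 in normal hIECs were among them.

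The 14 were these. EGFR with cytokines and PM10 was 0.0113 with median centring and 0.0828 with quantile normalization. Leaving out 1 library at a time gave the other 12 and these ranges. For PM10 in normal hIECs NRG1 ran from -0.129 (without normal library 1) to 0.381, FGF7 from -0.204 to 0.157 (without library 1 with PM10, and 0.0442 without normal library 2) and FGF13 from -0.407 (without library 2 with PM10) to 1.09. For cytokines without PM10 FGF11 ran from -0.288 to 0.0405 (without inflamed library 1, and 0.0165 without normal library 2) and FGF13 from -0.403 to 0.0518 (without inflamed library 2). For cytokines with PM10 FGF13 ran from -1.4 to 0.0905 (without normal library 2 with PM10). For PM10 in inflamed hIECs FGF13 ran from -0.369 to 0.0863 (without inflamed library 1) and FGF2 from -0.175 (without inflamed library 2 with PM10) to 0.339. In the interaction FGF13 ran from -1.23 to 0.266 and FGF2 from -0.102 to 0.412, with 0.266 and -0.102 found without normal library 2 with PM10 and inflamed library 2 with PM10.

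Replicate numbers did not pair the libraries: deviations from the group means of same-numbered libraries correlated between -0.00151 and 0.0793 over 14206 genes. With a replicate block the counts were 2, 7, 10, 5 and 3 for PM10 in normal hIECs, cytokines without and with PM10, PM10 in inflamed hIECs and the interaction, and the one call it added was FGF7 in the interaction (-0.63, limma adjusted p = 0.0434). With 2 libraries a group and no read counts, values of members under 1 FPKM and a listing at 0 cannot be given counting errors.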
